A study of Mus musculus with 8 samples.

Results

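The genes described here are the nuclear-encoded genes of the mitochondrial respiratory chain in mouse embryonic stem (ES) cells and their feeder cells, with and without CX-5461. They were chosen by name alone, as the rows of both count tables whose GENCODE symbol begins with Nduf, Sdha to Sdhd, Uqcr, Cox4 to Cox8 or Atp5. Of 54146 gene identifiers, 111 carry such a symbol, and 98 were kept after 9 symbols ending in -ps and 4 annotated processed pseudogenes without that ending (Cox6c2, Ndufa11b, Ndufb4c and Ndufs6b) were left out. By the known place of each product the 98 genes comprise 36 of complex I (7 core and 29 accessory subunits), 4 of complex II, 8 of complex III, 19 of complex IV, 18 of complex V and 13 assembly or stability factors.

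The respiratory chain sits in the inner mitochondrial membrane, where complexes I and II pass electrons from NADH and succinate to coenzyme Q, complex III passes them on to cytochrome c, and complex IV gives them to oxygen. Complexes I, III and IV pump protons as they do so, and complex V, the ATP synthase, uses the resulting gradient to make ATP. Most subunits are encoded in the nucleus and imported, a small set is encoded by mitochondrial DNA, and complex II is the only complex with nuclear subunits alone.

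The study treated ES cells with CX-5461, an inhibitor of RNA polymerase I, the enzyme that transcribes ribosomal RNA, and asked how blocked ribosome biogenesis bears on the 2C-like state, in which a few ES cells express genes of the 2-cell embryo. Control cells were untreated ICM-derived ES cells, named E14 wild-type in the study's methods, and the treated cells differed by CX-5461 only. Both cultures stood for 2 days on gelatin with mouse embryonic fibroblast (MEF) feeder cells in LIF/2i medium, so that feeders were exposed to the drug too. The labels list 4 samples per condition, but each condition was deposited as 1 pooled table whose cells carry running numbers, so cells could not be tied to samples and barcodes shared between libraries could not be counted (0 cells had the same profile in both). A single biological replicate stands behind each condition. Every comparison is therefore of 1 library with 1 library and has no test: intervals are exact 95% intervals of counting error only, and differences between cultures, libraries and runs cannot be told apart from the drug.

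Counts are unique molecular identifiers (UMIs), 1 per captured RNA molecule, read at the 3′ end of poly(A) RNA. There were 3838 control cells with 49610287 UMIs and 4922 CX-5461 cells with 69841836 UMIs. After the study's limits of 500 UMIs and 20% of UMIs on mt- genes, 3767 and 4697 cells were clustered without the 98 genes. ES cells were taken from the clusters named ES-like, with at least 5000 UMIs and at most 10% on mt- genes. This gave 2336 control cells (median 15947 UMIs) and 3918 CX-5461 cells (median 14749 UMIs). All 12 ES markers were present in both. The control ES cells all lay in cluster 0 and the CX-5461 ES cells in clusters 5, 6 and 7, so that within these limits no cluster held ES cells of both libraries. Feeders were the cluster led by fibroblast genes, with 218 control and 162 CX-5461 cells (medians of 20489 and 23608.5 UMIs) and none of its 20 fibroblast markers at 0. An unnamed cluster of shallow cells (median 2382 UMIs, 11.9% on mt- genes) held 30.9% of the control cells and 0.0213% of the CX-5461 cells and entered neither class. It kept the ES markers, at 1.09 of their level over all clustered cells, and was left unnamed for its low depth. In a library, the ES markers in feeders stood at 6.71% (control) and 4.92% (CX-5461) of their level in ES cells, and the fibroblast markers in ES cells at 3.56% and 4.5% of their level in feeders, which gives the scale of RNA shared between the classes. Of the 7 macrophage markers, none was at 0 in control feeders, with a summed level of 212 CPM (counts per 1000000 UMIs), and 2 were at 0 in CX-5461 feeders, at 17.3 CPM in sum.

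Each gene's change is the log2 ratio of its CPM, CX-5461 over control, minus the median log2 ratio of the 200 other nuclear genes nearest to it in level. This relative change is 0 when a gene moved as genes of its level did. A gene is called higher or lower when its relative change is at least 0.3 (1.23-fold) and its counting interval leaves out 0. In ES cells 94 of the 98 genes passed the minimum of 200 UMIs over both libraries, and in feeders 92 passed a minimum of 50. Cox4i2, Cox6a2, Cox8b and Cox8c passed in neither class, and Cox7b2 and Atp5s did not pass in feeders. Ndufa4l2 and a second identifier listed as Atp5o passed in both classes mainly through the CX-5461 library, and Ndufaf5 in feeders mainly through the control library.

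As a whole the 94 genes moved little against genes of their level, while single genes ranged from -2.51 to 5.32. In ES cells their median relative change was 0.14, with an interval of 0.08 to 0.19 from the medians of the single genes' bounds, and quartiles of -0.21 and 0.42. Of the 94, 35 were called higher and 19 lower, or 37.2% and 20.2%. Among 11444 other nuclear genes, 31.1% were called higher and 30.4% lower, with quartiles of -0.41 and 0.44, so that in this setting the members' share of higher calls lies somewhat above the background and their share of lower calls below it. The direction of the median rests on the scaling: it was 0.21 on library totals, where the median of the other genes was 0.36, and -0.19 with a single trimmed-mean (TMM) factor between the libraries, where 16 were called higher and 39 lower beside 30% and 32.8% of other genes. Among the 1168 other genes at the members' levels (above the members' lower quartile), 28.3% were called higher and 30.9% lower in the main setting.

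In feeders the 92 genes had a median relative change of -0.07, with quartiles of -0.37 and 0.26. The medians of the single genes' bounds gave an interval of -0.22 to 0.10. Here 20 were called higher and 24 lower, or 21.7% and 26.1%, beside 20.4% and 21.9% of 8341 other genes. These shares stand near that background, and both lie below the 27.9% and 31.4% of 1123 other genes at the members' levels. On library totals the median was 0.11, where other genes had a median of 0.17, and 30 were called higher and 19 lower beside 29.6% and 14.3% of other genes. Feeders without a macrophage-marker UMI (166 control and 114 CX-5461 cells, an alternative added after seeing the data) gave a median of -0.09 over all members and -0.37 for complex V. Of the 88 members tested in this setting 20 were called higher and 28 lower. Of 7086 other genes 19.9% were called higher and 21.3% lower.

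**Figure D1:**
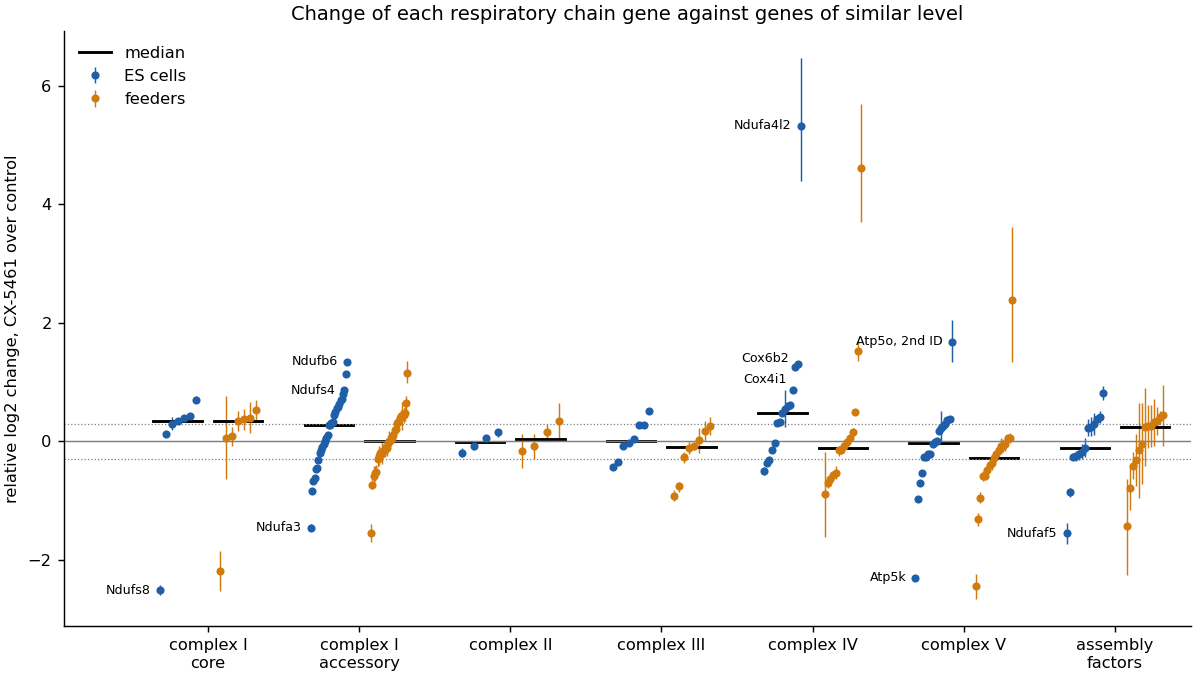
Relative log2 change (CX-5461 over control, against genes of similar level) of each respiratory chain gene that passed the UMI minimum, by group, in ES cells (blue, 94 genes) and feeders (orange, 92 genes). Bars are exact 95% counting intervals, black lines group medians and dotted lines the size of a call at 0.3 in either direction. Ndufs8 and Atp5k stand below -2 in both classes and Ndufa4l2 above 4 in both, while most genes lie between -1 and 1.

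By complex, ES cells showed the highest medians for complexes IV and I. Complex IV had a median of 0.47 (10 genes called higher and 3 lower of 15) and complex I a median of 0.29 (18 higher and 8 lower of 36). Complexes II, III and V lay near the reference, at -0.01, 0.00 and -0.03. Complex II had no called gene of 4, complex III 1 higher and 2 lower of 8, and complex V 3 higher and 4 lower of 18. The higher calls include Ndufa4l2 in complex IV and the second Atp5o identifier in complex V. Both passed the minimum mainly through the CX-5461 library. Of other nuclear genes 31.1% were called higher and 30.4% lower, and 28.3% and 30.9% of those at the members' levels. For complexes III (12.5% and 25%) and V (16.7% and 22.2%) both shares lay below these. The 13 assembly factors had a median of -0.11, with 3 called higher and 2 lower. With the TMM factor, complex IV stood at -0.06, complex I at 0.03 and complex V at -0.45. The order of complexes I and IV above complex V was thus kept while the place of 0 was not.

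In feeders complex V was the lowest group, with a median of -0.28 and 8 genes called lower and 1 higher of 17. The 1 higher call was the second identifier listed as Atp5o (9 and 44 UMIs), which passed mainly through the CX-5461 library. Ndufa4l2, among the higher calls of complex IV, passed in the same way. Complex IV lay at -0.11 (5 lower, 3 higher of 14), complex III at -0.09 (2 lower, none higher of 8), complex II at 0.04 (1 higher of 4) and complex I at 0.06 (13 higher, 6 lower of 36). Of other nuclear genes in feeders 21.9% were called lower and 20.4% higher, and 31.4% and 27.9% of those at the members' levels. The assembly factors had a median of 0.24, with a wide interval of -0.41 to 0.61 from the medians of the single genes' bounds. The 7 core subunits of complex I had nearly the same median in both classes, 0.36 in ES cells and 0.34 in feeders. For complex IV the median was above 0 in ES cells (below it with the TMM factor) and below 0 in feeders (0.01 on library totals), and this difference between classes was not tested.

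The share of all UMIs shows the same genes by weight, where the most abundant transcripts count most. In ES cells the members together took 3.15% of UMIs in control and 3.46% in CX-5461. Complex I took 0.812% and 1.03% of UMIs, and complex IV 0.945% and 1.14%. Complex V took 0.95% and 0.842%, and complex III 0.347% and 0.341%. In feeders the members took 2.98% and 2.99%, with complex I at 0.839% and 0.952%, complex IV at 0.928% and 0.953%, complex III at 0.315% and 0.282%, and complex V at 0.796% and 0.678%. The counting intervals of these shares do not overlap between libraries except for all members in feeders.

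Over single ES cells the median share of complex I was 0.806% (quartiles 0.728 and 0.883) in control and 1.02% (0.947 and 1.1) in CX-5461, so that the lower quartile of treated cells lay above the upper quartile of control cells. For complex IV the medians were 0.933% (quartiles 0.843 and 1.02) and 1.13% (1.04 and 1.22), with the quartile ranges again apart. For complex V they were 0.942% (0.856 and 1.03) and 0.833% (0.759 and 0.908), and these ranges overlap.

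**Figure D2:**
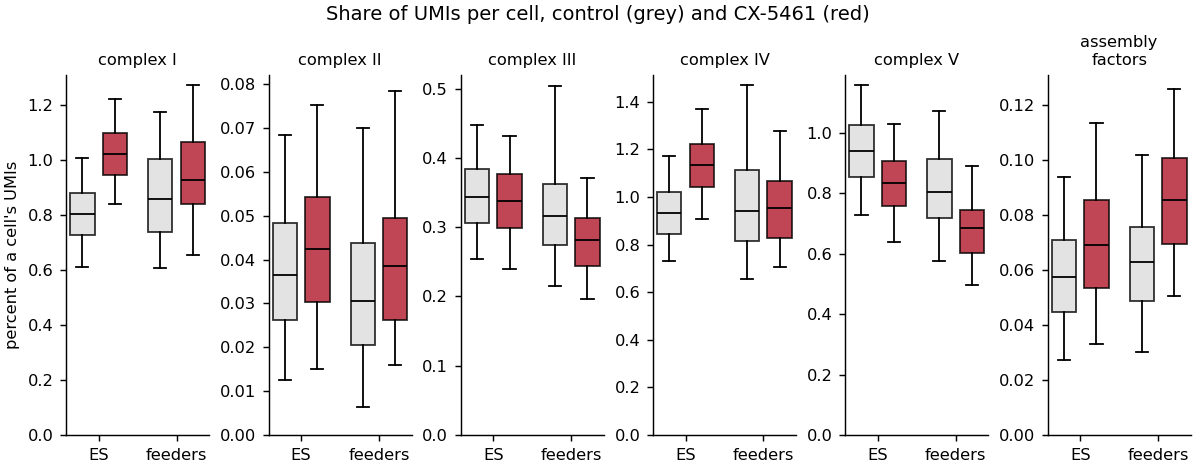
Percent of a cell's UMIs on the genes of each complex, in ES cells and feeders of the control (grey) and CX-5461 (red) library; lines are medians, boxes quartiles and whiskers the 5th and 95th percentiles over cells of 1 library each. In ES cells complex I moves from a median of 0.806% to 1.02% and complex V from 0.942% to 0.833%, and in feeders complex V moves from 0.803% to 0.684%.

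The share of UMIs on mt- genes moved with the library, with a median of 1.88% in control and 4% in CX-5461 ES cells, and 1.91% and 3.08% in feeders. Counted on nuclear UMIs alone, the members took 3.21% and 3.6% in ES cells. Within the band of cells with 2 to 3% on mt- genes, 777 control ES-like cells gave 3.07% and 309 CX-5461 cells 3.47%, with complex I at 0.788% and 1.01% and complex V at 0.916% and 0.89%. In a band of like depth (median 12669 and 12916 UMIs), 837 control and 1714 CX-5461 ES cells gave 3.06% and 3.42%. In the 772 and 306 cells of the mt- band that met the ES limits the median relative changes were 0.21 for complex I and 0.17 for complex IV, the latter under the 0.47 of all ES cells. The CX-5461 clusters also differed: against all control ES cells, complex V lay at -0.09 in cluster 5 (3108 cells) and at 0.14 in cluster 6 (772 cells, led by Rgs14 and Krt15), and complex I at 0.26 and 0.40.

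**Figure D3:**
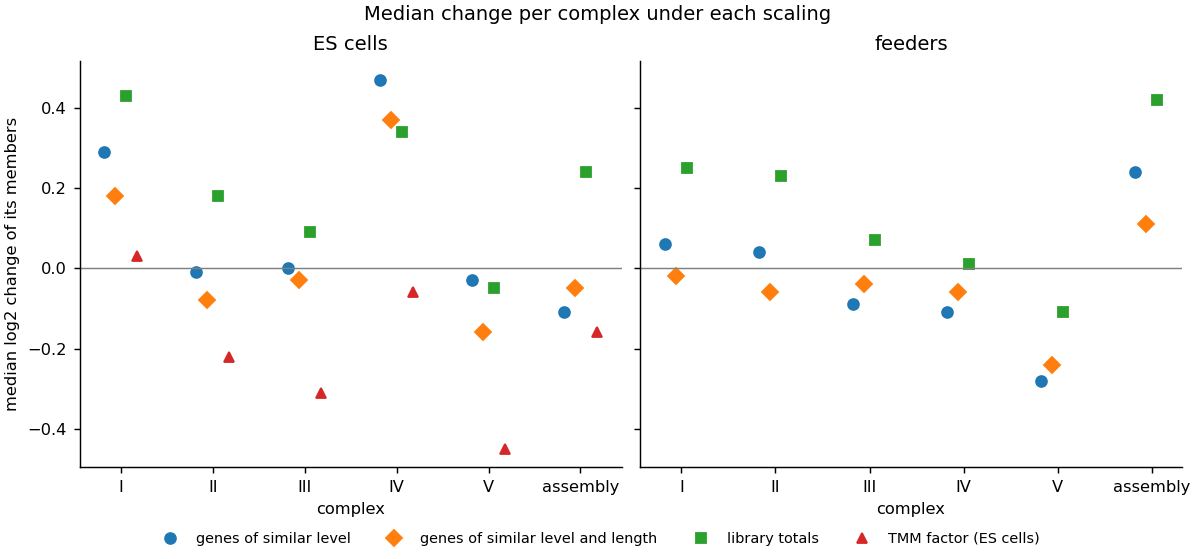
Median log2 change of each complex's genes, CX-5461 over control, when set against genes of similar level, genes of similar level and transcript length, library totals or, in ES cells, a TMM factor. In ES cells complexes I and IV lie above complex V in all of them, while the median of complex IV runs from 0.47 to -0.06. Library totals and the TMM factor differ by a constant, so the order of complexes is the same in both by construction.

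Complex I holds the gene with the largest fall in ES cells. Ndufs8 encodes a core subunit that binds iron-sulfur clusters (ENSMUSG00000059734.6, GRCm38 chromosome 19, 3908863 to 3912774, minus strand). It stood at 134 CPM in control ES cells and 27.4 in CX-5461 ES cells, from 5552 and 1653 UMIs. In feeders it stood at 94.2 and 23.2. Both classes were thus lower with CX-5461, with relative changes of -2.51 (interval -2.59 to -2.43) in ES cells and -2.18 (-2.53 to -1.85) in feeders. Among ES cells thinned to 5000 UMIs each, 47.6% of control and 11.8% of CX-5461 cells held an Ndufs8 UMI. In all 20 alternative settings in ES cells and all 10 in feeders it was called lower.

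Other core subunits were called higher. Ndufs3, Ndufv1, Ndufv2 and Ndufs1 were higher in ES cells, by 0.70, 0.42, 0.39 and 0.30, and Ndufs7 lay at 0.13. The call of Ndufs1 held in 10 of 20 alternative settings. Eef1b2, which overlaps Ndufs1 on the other strand, had 57683 and 153876 UMIs in ES cells beside 1027 and 2295 of Ndufs1. Whether strand was used in counting is not given. Ndufs3 stood at 100 and 174 CPM in ES cells and 110 and 177 in feeders. Ndufv1, which carries the NADH binding site, stood at 82.5 and 133 in ES cells and 47.9 and 71.1 in feeders. Ndufs3, Ndufv1 and Ndufv2 were called higher in feeders as well, opposite to Ndufs8 in both classes.

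Among the 29 accessory subunits, which surround the core and mostly bear no cofactor, 13 were called higher and 7 lower in ES cells. These are 44.8% and 24.1%, beside 31.1% and 30.4% of other nuclear genes. Ndufa3 was lowest, at 165 and 68.5 CPM in ES cells and 311 and 121 in feeders, with relative changes of -1.46 and -1.54. Ndufa5 followed at -0.84 in ES cells and -0.58 in feeders, and Ndufa2, Ndufc1, Ndufv3, Ndufs6 and Ndufb4 lay between -0.66 and -0.32 in ES cells. Tfpt, which overlaps Ndufa3 on the other strand, was at 19.8 and 31.8 CPM in ES cells, higher with CX-5461 where Ndufa3 was lower.

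Ndufb6 was highest of the accessory subunits in ES cells, at 217 and 589 CPM (relative change 1.34, interval 1.30 to 1.37). In feeders it stood at 308 and 454 (0.31), a call that was lost in 3 of 10 settings, so that the change was larger in ES cells than in feeders, with no test of the difference. Ndufc2 stood at 174 and 422 in ES cells and 193 and 338 in feeders (1.14 and 0.64). Ndufs4, a subunit of the electron input module, was called higher in both classes, at 156 and 308 in ES cells (0.86) and 74.0 and 185 in feeders (1.16). Ndufab1, the mitochondrial acyl carrier protein, stood at 264 and 505 in ES cells and 261 and 401 in feeders (0.80 and 0.39). In cluster 6 of the CX-5461 cells the relative changes of these were larger, 2.01 for Ndufb6, 1.73 for Ndufc2 and 1.41 for Ndufab1.

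**Figure D4:**
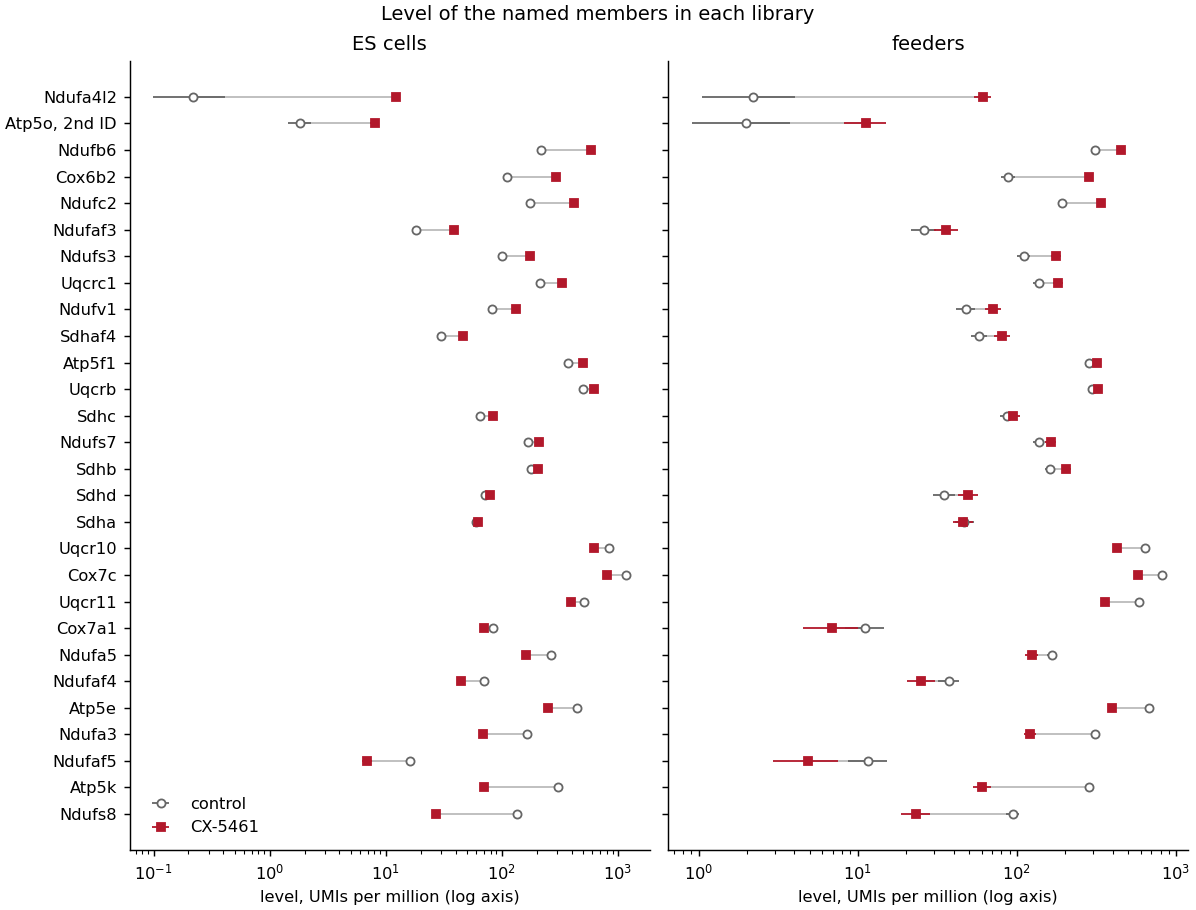
Level in CPM (log axis) of the named members in ES cells and feeders, control (open circles) and CX-5461 (red squares), with exact 95% Poisson intervals, ordered by relative change in ES cells. Ndufs8 moves from 134 to 27.4 and Atp5k from 304 to 69.6 in ES cells, and Ndufa4l2 from 0.218 to 12.3, with the same directions in feeders.

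Complex II, succinate dehydrogenase, also works in the citric acid cycle. In ES cells none of its 4 genes was called. Sdha, the flavoprotein, stood at 60.6 and 62 CPM (relative change -0.20), and Sdhb, the iron-sulfur protein, at 178 and 207 (0.05). The membrane anchors Sdhc and Sdhd stood at 65.6 and 84.3 (0.15) and at 72 and 79.2 (-0.08). In feeders only Sdhd was called, higher by 0.34 (interval 0.03 to 0.65, from 159 and 193 UMIs), a call lost against genes of similar transcript length (0.28) and without feeders that held over 5 ES-marker UMIs (0.25).

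Complex III had called genes in either direction in ES cells. Uqcr10 and Uqcr11, small accessory subunits, were called lower in both classes. Uqcr11 stood at 512 and 393 CPM in ES cells and 587 and 359 in feeders (-0.43 and -0.92), and Uqcr10 at 842 and 623 in ES cells and 637 and 424 in feeders (-0.35 and -0.76). Uqcrc1, a large core protein, was called higher in ES cells, at 212 and 327 (0.51), and lay at 0.26 in feeders. Uqcrb lay just under the size of a call in ES cells, at 0.28, and at -0.11 in feeders. Uqcrc2, Uqcrfs1, Uqcrh and Uqcrq were within 0.3 of the reference in both classes.

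Complex IV, cytochrome c oxidase, held the largest rise. Ndufa4l2 is a paralog of Ndufa4 known as a target of hypoxia signalling (ENSMUSG00000040280.10, chromosome 10, 127514967 to 127517154, plus strand). Its level in ES cells was 0.218 CPM in control (9 UMIs) and 12.3 in CX-5461 (744 UMIs), and in feeders 2.19 (10 UMIs) and 60.9 (239 UMIs). The ratios were 56.6 and 27.7, and the relative changes 5.32 (interval 4.39 to 6.46) and 4.61 (3.70 to 5.69). CX-5461 was thus far above control in both classes. Of the CX-5461 cells, 13.1% of ES cells and 37.7% of feeders held at least 1 of its UMIs, against 0.385% and 3.21% of control cells. With each ES cell thinned to 5000 UMIs the shares were 5.59% and 0.128%. In the CX-5461 library its level in ES cells was 20.2% of that in feeders, beside 4.5% for the fibroblast markers. Shmt2, which overlaps it on the other strand, stood at 41.5 and 35.3 CPM in ES cells, and whether strand was used in counting is not given in the sources used here.

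Ndufa4 itself rose in ES cells, from 819 to 1319 CPM (0.86, or 0.29 with the TMM factor), and was not called in feeders, at 552 and 560 (-0.15). Cox4i1, the common form of subunit 4, stood at 936 and 1870 CPM in ES cells. Relative to genes of its level it changed by 1.25, since those genes moved by -0.26, and with the TMM factor by 0.60. In feeders it stood at 1558 and 2108 (0.49), and at 0.16 against genes of similar transcript length. Cox8a, Cox5b, Cox6a1, Cox6b1 and Cox5a were called higher in ES cells too, between 0.31 and 0.61, and none of the 5 in feeders, where they lay between -0.15 and 0.16. With the TMM factor Cox5a (-0.31), Cox6b1 (-0.18) and Cox8a (-0.06) turned to the other side of 0 in ES cells, and the higher call of Cox5a held in 9 of 20 settings. Cox7c and Cox7b were called lower in both classes, with Cox7c at 1166 and 804 CPM in ES cells and 817 and 579 in feeders.

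The tissue forms of complex IV subunits gave a mixed picture. Cox6b2, known as the testis form of subunit 6b, rose in both classes, from 110 to 292 CPM in ES cells (1.30) and from 88.0 to 284 in feeders (1.53). Its share of the UMIs of Cox6b1 and Cox6b2 together went from 13.8% (interval 13.5 to 14.2) to 26.8% (26.4 to 27.1) in ES cells, and from 10.4% (9.45 to 11.4) to 27.3% (25.9 to 28.7) in feeders. Cox6b1 was at 687 and 800 in ES cells and 758 and 757 in feeders, so the pair's balance moved by Cox6b2. Cox7a1, the heart and muscle form of subunit 7a, was called lower in ES cells, at 84.5 and 70.2 (-0.50), and its share of the pair with Cox7a2 stayed at 10.7% and 10.4%. In feeders Cox7a1 stood at 11.2 and 6.88 CPM, 13.2% and 9.81% of its ES level, against the 6.71% and 4.92% of the ES markers. Cox7b2 had 113 and 372 UMIs in ES cells (0.55, interval 0.24 to 0.86) and 2 in either feeder group.

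The remaining tissue forms were near or at the limit of detection. Cox8b had 0 UMIs in all cells, which allows up to 0.128% of control and 0.0766% of CX-5461 ES cells to hold a UMI by the limit of 3 counts. Cox8c had 26 and 9 UMIs in ES cells and Cox6a2 15 and 14. Cox4i2 had 17 and 92 UMIs in ES cells, in 0.728% and 2.27% of cells, and 9 and 18 in feeders, in 2.75% and 9.26% (2.53% and 3.11% of feeders thinned to 5000 UMIs). These few UMIs are not read as a change.

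Complex V held the second large fall. Atp5k encodes subunit e, which lies in the membrane part where ATP synthase dimers meet (ENSMUSG00000050856.16, chromosome 5, 108433244 to 108434448, minus strand). It stood at 304 and 69.6 CPM in ES cells, from 12555 and 4204 UMIs, and at 284 and 60.1 in feeders. The relative changes were -2.30 (-2.35 to -2.25) and -2.44 (-2.65 to -2.24), and it was called lower in all 20 and all 10 alternative settings. The counting intervals of the relative changes overlap between the classes.

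Atp5e, the epsilon subunit of the catalytic head, stood at 447 and 248 in ES cells and 680 and 397 in feeders (-0.97 and -0.95). Atp5mpl, a small membrane subunit, lay at -0.71 and -1.31. Atp5d and Atp5f1 were called higher in ES cells, at 0.36 and 0.37, and lay at 0.05 and -0.07 in feeders. The catalytic subunits Atp5a1 and Atp5b were not called in either class (-0.00 and 0.18 in ES cells, -0.08 and -0.28 in feeders).

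Atp5g1, Atp5g2 and Atp5g3 encode the same mature c subunit of the proton ring from 3 genes. A molecule gives at most 1 UMI whatever its length, and their UMIs are set side by side here. Whether the 3 genes yield UMIs equally well was not tested, so the percentages below are shares of UMIs. Atp5g1 was called lower in both classes, at 1552 and 907 CPM in ES cells and 863 and 641 in feeders (-0.54 and -0.58). Atp5g2 held 744 and 696 in ES cells (-0.01) and fell in feeders, from 615 to 467 (-0.59). Atp5g3 held 339 and 307 in ES cells (-0.27), and 221 and 198 in feeders, where it was called lower (-0.36). Of the UMIs of the 3 genes in ES cells, Atp5g1 took 58.9% in control and 47.5% in CX-5461, Atp5g2 28.2% and 36.4%, and Atp5g3 12.9% and 16.1%. In feeders Atp5g1 took 50.8% and 49.1%, with overlapping counting intervals (49.6 to 51.9, and 47.7 to 50.4), while those in ES cells are apart. The difference between classes was not tested.

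The second identifier listed as Atp5o (ENSMUSG00000116933.1, chromosome 16, 91684398 to 91926982, minus strand) runs across Cryzl1 and Donson into the Atp5o gene itself (91925214 to 91931687). It had 75 and 485 UMIs in ES cells and 9 and 44 in feeders (1.68 and 2.39), while Atp5o stood at 475 and 426 CPM in ES cells (-0.21). The 2 identifiers share bases, so the split of their UMIs is uncertain, and the tables list 4 and 16 ambiguous counts for them. Ndufb9 is the only other member with ambiguous counts, 11 and 88.

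Of the 13 assembly factors, Ndufaf5 and Ndufaf4, which act in the building of complex I, were called lower in both classes. Ndufaf5 stood at 16.3 and 6.91 CPM in ES cells and 11.6 and 4.84 in feeders (-1.55 and -1.42, the latter from 53 and 19 UMIs). In the band of 2 to 3% on mt- genes its relative change was -0.93. Ndufaf4 stood at 70.3 and 44.9 in ES cells and 37.5 and 25 in feeders (-0.86 and -0.79). Ndufaf3 was the highest, at 18.4 and 39.1 in ES cells (0.81) and 26.1 and 35.9 in feeders (0.26, not called). Impdh2, which overlaps Ndufaf3 on the other strand, stood at 321 and 371 CPM in ES cells. Sdhaf4, which helps to assemble complex II, and Cox7a2l, which holds complexes III and IV together in supercomplexes, were called higher in both classes, at 0.41 and 0.38 in ES cells and 0.34 and 0.41 in feeders. Without feeders that held over 5 ES-marker UMIs, Sdhaf4 lay at -0.06 in feeders.

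The changes were also set against transcript length, a property examined after the values were seen. The 13 members with a median coding transcript under 500 bases had a median relative change of -0.35 in ES cells (7 called lower, 3 higher) and -0.76 in feeders (7 lower, 1 higher). The 39 members of 500 to 750 bases lay at 0.26 in ES cells, the 15 of 750 to 1000 bases at 0.39, the 18 of 1000 to 1500 bases at 0.26 and the 9 longer ones at -0.11 (2 lower, none higher). In feeders these 4 classes lay at -0.01, 0.05, 0.16 and -0.28, so that the change did not climb steadily with length. Other genes at the members' levels (above the members' lower quartile) were examined alike: 52 of them under 500 bases had a median of -0.44 in ES cells with 59.6% called lower, and 43 in feeders a median of -0.41 with 62.8% called lower. For those of 750 to 1000 bases the median was 0.11 in both classes. Against 200 genes of both similar level and similar length, the members' median in ES cells was 0.02, complex I lay at 0.18, complex IV at 0.37 and complex V at -0.16. Ndufs8, of 977 bases, and Ndufaf5, of 1166 bases, are not short. The part of length in the changes was not tested.

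**Figure D5:**
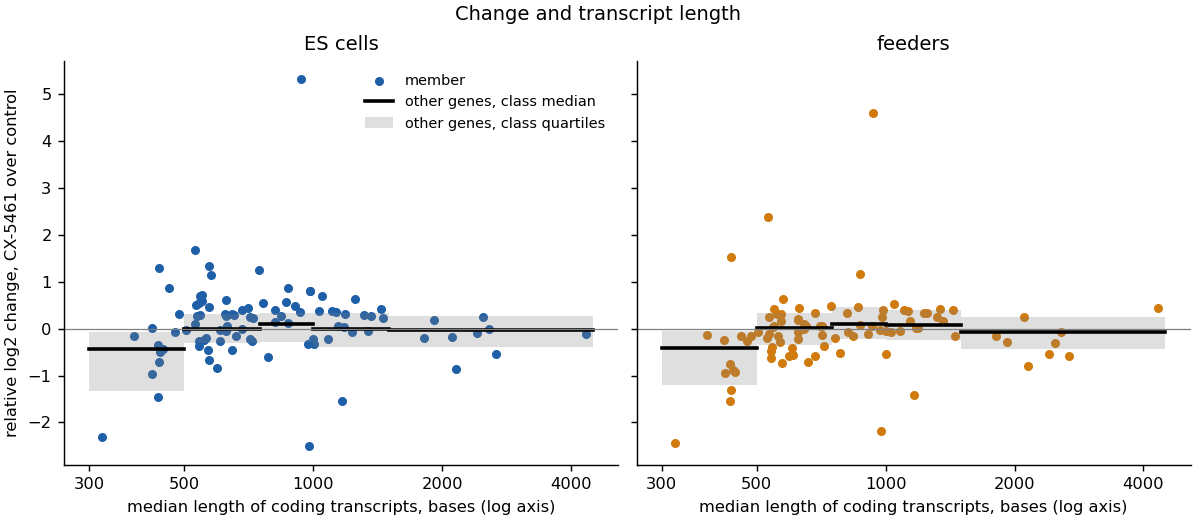
Relative log2 change of each member against the median length of its annotated coding transcripts (log axis) in ES cells and feeders. Black lines and grey bands are the median and quartiles of other genes at the members' levels in 5 length classes. Members under 500 bases centre at -0.35 in ES cells and -0.76 in feeders, beside -0.44 and -0.41 for the other short genes.

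The promoters show another shared feature. NRF1, GABPA (an ETS factor) and YY1 are known regulators of respiratory chain genes, and their cores were searched on both strands as CGCANGCG, CCGGAAGT and AAGATGGC in RefSeq windows (GRCm38.p6) from 250 bases before to 50 after the start. Of the 98 genes, 78 matched an entry by symbol. The NRF1 core lay in 38.5% of these 78 and in 9.22% of all 27025 genes with a window. The GABPA core lay in 6.41% and 4.31%, and the YY1 core in 12.8% and 3.19%. In the 250 bases before the start alone, the NRF1 core lay in 26.9% of these members and 7.65% of all genes. There the GABPA core lay in 3.85% and 3.23%, and the YY1 core in 1.28% and 1.83%. The higher share of YY1 cores among members was thus not seen before the start. Among members called in ES cells, the NRF1 core lay in the windows of 8 of 17 called lower, 16 of 32 not called and 6 of 28 called higher. The core thus occurred among members of either direction, but in 47.1% of those called lower, 50% of those not called and 21.4% of those called higher. This difference was not tested, and a match is letters in a window and not a bound site.

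Shown next are the windows of the 3 lowest and the 3 highest called members in ES cells with a single window, from 250 bases before the start up to the start. Some larger rises than that of Ndufc2 (1.14) are missing. Ndufa4l2 (5.32) and Cox4i1 (1.25) have no entry by symbol, and the second Atp5o identifier (1.68) was not matched. Ndufs8, Atp5k and Ndufaf5 were called lower, and Ndufc2, Cox6b2 and Ndufb6 higher. Capitals mark an NRF1 core.
Ndufs8, chr19:3912775-3913024, minus strand: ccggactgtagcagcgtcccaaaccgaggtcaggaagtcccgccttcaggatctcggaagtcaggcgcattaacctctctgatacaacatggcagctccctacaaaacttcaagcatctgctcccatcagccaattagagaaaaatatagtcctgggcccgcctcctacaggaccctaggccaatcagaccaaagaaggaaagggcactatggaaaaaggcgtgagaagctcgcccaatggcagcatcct
Atp5k, chr5:108434400-108434649, minus strand: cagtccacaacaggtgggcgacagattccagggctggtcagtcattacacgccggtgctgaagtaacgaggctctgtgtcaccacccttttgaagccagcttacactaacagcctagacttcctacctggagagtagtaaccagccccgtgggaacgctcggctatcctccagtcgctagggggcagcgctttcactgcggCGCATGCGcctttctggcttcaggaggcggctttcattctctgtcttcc
Ndufaf5, chr2:140170396-140170645, plus strand: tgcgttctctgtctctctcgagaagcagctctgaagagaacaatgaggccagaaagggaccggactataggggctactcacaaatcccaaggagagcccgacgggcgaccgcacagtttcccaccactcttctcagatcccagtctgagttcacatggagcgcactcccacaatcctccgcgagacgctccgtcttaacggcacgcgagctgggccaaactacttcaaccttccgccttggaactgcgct
Ndufc2, chr7:97399753-97400002, plus strand: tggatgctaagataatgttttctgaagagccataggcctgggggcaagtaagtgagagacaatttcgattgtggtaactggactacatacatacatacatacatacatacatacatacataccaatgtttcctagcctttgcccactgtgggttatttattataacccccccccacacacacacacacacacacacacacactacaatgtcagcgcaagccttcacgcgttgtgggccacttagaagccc
Cox6b2, chr7:4753095-4753344, minus strand: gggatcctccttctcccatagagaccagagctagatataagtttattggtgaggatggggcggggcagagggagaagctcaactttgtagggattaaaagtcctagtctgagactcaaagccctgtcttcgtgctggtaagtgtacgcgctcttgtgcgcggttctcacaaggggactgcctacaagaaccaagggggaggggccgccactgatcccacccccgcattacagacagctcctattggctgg
Ndufb6, chr4:40279422-40279671, minus strand: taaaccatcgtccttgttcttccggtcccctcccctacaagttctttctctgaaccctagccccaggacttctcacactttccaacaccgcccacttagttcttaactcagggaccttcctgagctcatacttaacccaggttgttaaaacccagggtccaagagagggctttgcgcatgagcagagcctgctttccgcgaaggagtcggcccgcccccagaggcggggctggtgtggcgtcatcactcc
Of these only Atp5k holds any of the 3 cores in this stretch, an NRF1 core that begins 49 bases before the start and reads the same on both strands. Ndufaf5 holds an NRF1 core within the 50 bases after its start, which are not shown.

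The rest of the pathway was described by lists of genes. Their calls are to be read beside those of other nuclear genes. Of these, 31.1% were called higher and 30.4% lower in ES cells, and 20.4% and 21.9% in feeders. The 13 subunits encoded by mitochondrial DNA took 1.96% and 4% of UMIs in ES cells and 1.95% and 3.1% in feeders. In ES cells 9 of them were called higher and 4 lower against nuclear genes of their level. The range was -1.46 for mt-Atp8 (268 and 192 UMIs) to 1.62 for mt-Atp6 (147444 and 573233 UMIs). mt-Nd4l, also called lower, had 674 and 738 UMIs beside 33628 and 92505 of mt-Nd4, called higher. How reads were divided between mt- genes was not tested. Nuclear and mitochondrial subunits of the chain thus moved by different amounts, with log2 ratios of their summed shares of 0.13 and 1.03 in ES cells and 0.01 and 0.67 in feeders.

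The list of cytochrome c and coenzyme Q genes also holds Cyc1, a complex III subunit, and Etfa, Etfb and Etfdh, which pass electrons to coenzyme Q. It had a median relative change of 0.41 in ES cells, with 10 of 18 called higher (3 of them Etfa, Etfb and Etfdh) and 2 lower, and 0.19 in feeders (4 higher, 1 lower of 14). Coq4, a coenzyme Q synthesis factor, was highest in ES cells at 1.25, and Cycs, cytochrome c itself, lowest at -0.53, and it was lowest in feeders too (-0.45). The 32 assembly factors with other names lay at 0.11 in ES cells (9 higher and 7 lower of 31 tested) and 0.06 in feeders (7 higher, 4 lower of 29). For both lists the background is 31.1% higher and 30.4% lower in ES cells, and 20.4% and 21.9% in feeders. Sco2, a copper carrier for complex IV, stood at 1.09 in ES cells, and Uqcc2, for complex III, at -1.28.

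The citric acid cycle list also holds genes outside the cycle itself, Pcx (pyruvate carboxylase) and the pyruvate dehydrogenase genes Pdha1, Pdhb and Dlat. It lay at -0.18 in ES cells, with 6 of 18 called lower (Dlat and Pdha1 among them) and 1 higher, and at -0.10 in feeders (3 lower, 3 higher). Of other nuclear genes, 30.4% were called lower and 31.1% higher in ES cells, and 21.9% and 20.4% in feeders. The only gene of the citric acid cycle list called higher in ES cells was Pcx, at 2.04, and it stood at 2.32 in feeders. Mitochondrial import genes lay at -0.06 in ES cells (5 lower, 3 higher of 20) and -0.12 in feeders (6 lower, none higher), with Tomm7 lowest in both, at -0.99 and -1.45. Of the regulators, 7 of 14 tested in ES cells were called lower and 2 higher, from Myc at -1.95 to Esrra at 0.89, and 3 of 10 in feeders lower and 1 higher. Nrf1 itself stood at 38.4 and 26.2 CPM in ES cells and was called lower (-0.90).

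Cells outside the main classes gave shares of UMIs only. In the 2C-like cluster the members took 2.86% in 12 control cells and 3.3% in 97 CX-5461 cells, with complex I at 0.8% and 0.996% and complex V at 0.804% and 0.775%. In CX-5461 cluster 7, an ES-like cluster with a median of 15.6% on mt- genes that the 10% limit mostly leaves out, the members took 3.53%, with complex IV at 1.33%. This stands above the 1.14% of the CX-5461 ES cells.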

How the data were processed

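The deposited values were raw UMI counts per gene and cell, 1 matrix per condition with the 4 samples pooled, which the authors made from 10x Genomics Single Cell 3′ libraries with a published droplet pipeline; the aligner's settings and any use of strand are not given in the sources used here. The study's methods name Seurat 2.3.4 and mouse build mm10. A further deposited column counts reads shared between genes and was used only to mark uncertain members. There were 0 columns of per-sample values left unused. Identifiers were matched to GENCODE M21 (GRCm38). The members and lists were chosen with earlier results of these data known.

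Cells under 500 UMIs or above 20% on mt- genes were dropped and the rest clustered without the members (scanpy 1.11.5), and clusters were named from marker lists. No doublet caller was run; alternatives left out the 10% deepest cells and feeders with over 5 ES-marker UMIs. UMIs were summed per library and class (numpy 2.4.6, scipy 1.17.1, pandas 2.3.3). The reference of a gene is the median of the 200 other nuclear genes nearest in level, with minima of 200 UMIs (ES cells) and 50 (feeders). A call needs a relative log2 change of 0.3 and an exact 95% conditional binomial interval that leaves out 0; sums carry exact Poisson and shares exact Clopper-Pearson intervals, which cover counting error only. With 1 library per condition, no test was made and no p-value is given. The TMM factor came from edgeR 4.0.16 in R 4.3.3. The calculation was tested on simulated data.

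Named by rule were the 2 highest and 2 lowest members of each group in ES cells, all of complex II, the Atp5g genes, tissue isoforms beside their common forms, and the 3 highest and 3 lowest in feeders. The rule also named Atp5if1, which has no row under that symbol. Other members were named after their values were seen, and 1 item is not reported here. Promoter windows came from RefSeq (GRCm38.p6) by symbol.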

Additional observations from a re-analysis of the deposited data

Results flagged for a closer look

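Signal appeared in rows and cells that the comparisons left out. Of the left-out symbols, Ndufb4c, an annotated processed pseudogene, stood at 54.5 CPM in control and 64.4 CPM in CX-5461 ES cells (ratio 1.18, counting interval 1.12 to 1.24). The member of like name, Ndufb4, was called lower in ES cells (-0.32), and how reads were divided between them was not tested. Ndufab1-ps stood at 12.5 and 32.7 CPM in ES cells (ratio 2.61) and at 10.8 and 22.4 CPM in feeders (ratio 2.09), while Ndufab1, at 264 and 505 CPM in ES cells, was called higher too.

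The unnamed shallow cluster of 1163 control cells gave 4.15% of its UMIs to the members, above the 3.15% of control ES cells, with complex IV at 1.7% and complex V at 0.94%. These cells had a median of 2382 UMIs and 11.9% on mt- genes, against 15947 UMIs and 1.88%, and the part of depth in this difference was not tested. A search for single stray samples could not be made, since no condition has replicates.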

How the results depend on the processing

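No paired analysis was possible because the cells carry no sample of origin, and for the same reason no replicate could be left out. In ES cells 14 of the 19 lower and 15 of the 35 higher calls held in every alternative setting that tested the gene (20 at most). In feeders 18 of 24 lower and 10 of 20 higher calls did so (10 at most). Some of these genes were tested in fewer settings. In ES cells these were the second Atp5o identifier (16), Cox7b2 (16) and Ndufa4l2 (19), and in feeders the second Atp5o identifier (7), Cox7a1 (7) and Ndufaf5 (8). With the TMM factor the ES median of all members was -0.19, with complexes I to V at 0.03, -0.22, -0.31, -0.06 and -0.45, 39 members called lower and 16 higher, and Cox5a (-0.31), Cox6b1 (-0.18) and Cox8a (-0.06), called higher above, below 0. On library totals all members, complexes I, II and III and the assembly factors lay at 0.21, 0.43, 0.18, 0.09 and 0.24 in ES cells. In feeders all members and complexes I to V then lay at 0.11, 0.25, 0.23, 0.07, 0.01 and -0.11. With 50 nearest genes the ES medians were 0.20 for all members, 0.04 for complex V and 0.07 for assembly factors, and with 20 level bins 0.06 for complex III and 0.02 for complex V (-0.17 in feeders). A size of 0.5 left 12 lower and 20 higher calls in ES cells and 6 higher calls in feeders. The share of other genes called at that size was not counted, so these calls have no background. Up to 20% on mt- genes gave 0.51 for complex IV, and thinning to 5000 UMIs gave -0.11 for complex V. Without feeders that held over 5 ES-marker UMIs, which left 74 and 59 cells and 83 members, complex I lay at -0.09, 12 members were called higher and Sdhaf4 lay at -0.06. Of 3854 other genes in this setting, 18.7% were called higher.

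Other alternatives were chosen after seeing the data. CX-5461 cluster 5 alone gave -0.09 for complex V, and cluster 6 alone 0.40, 0.08, 0.55 and 0.14 for complexes I, III, IV and V. The band of 2 to 3% on mt- genes gave 0.21, 0.05, 0.17 and 0.02 for these and 0.12 for assembly factors. The band of like depth gave 0.35 for complex I and 0.04 for complex III. Against genes of similar length, all members lay at 0.02 and complexes I, II and V at 0.18, -0.08 and -0.16. The causes of these shifts were not tested. The number of feeders, 218 control and 162 CX-5461 cells, leaves wide intervals for low genes, such as -2.26 to -0.64 for Ndufaf5.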

Other observations

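Ndufb1-ps, left out by its name but annotated as a long noncoding RNA from a bidirectional promoter, stood at 181 CPM in control and 71.7 CPM in CX-5461 ES cells (ratio 0.396, counting interval 0.381 to 0.411) and at 333 and 109 CPM in feeders (ratio 0.327, interval 0.293 to 0.365). Both classes were lower with CX-5461. Atp5l-ps1 stood at 50.9 and 53.4 CPM in ES cells and 45.9 and 38.2 CPM in feeders, with counting intervals of the ratios (0.993 to 1.11 and 0.671 to 1.03) that hold 1.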
